A study of Mus musculus with 9 samples.

Results

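Abca8b, Abca8a, Abca9, Abca6 and Abca5 form a tandem cluster of ATP-binding cassette (ABC) transporter genes on mouse chromosome 11, and Map2k6 lies beside them. All 5 cluster genes were found by symbol among the 13179 genes of the deposited expression table, and all 5 passed the filter on low values that left 13137 genes for testing. The genes were chosen with their values in these libraries in view, namely the low Abca5 and high Map2k6 values of the knockouts, so the differences of the cluster genes and of Map2k6 are given as a description, with a standard error and no p-value.

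The libraries hold polyadenylated RNA of the gastrocnemius, a mixed calf muscle, of mice on a high-fat diet for 6 weeks. The groups were p38α KO (genotype label p38alphaMCK-KO), p38α/γ KO (p38alpha/gammaMCK-KO) and control, with 3 libraries each. MCK is the muscle creatine kinase gene, whose promoter is widely used to drive recombination in striated muscle; the labels give no further detail of alleles or driver, and no strain, sex or age, and the genotype of the controls is given only as control. The diet was common to all groups. The labels do not state that the libraries came from separate animals, so the p-values below measure only the spread between these libraries. The 3 groups were set against each other in pairs, and both comparisons with control share the same 3 control libraries.

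ABC transporters of subfamily A are large membrane proteins that use ATP to move lipids across membranes, and many of them act on cholesterol and phospholipids. ABCA5 is found in lysosomes and late endosomes and has been tied to cholesterol handling there, and ABCA8 has been tied to cholesterol efflux. The roles of ABCA6 and ABCA9 are less settled; both respond to cholesterol in human macrophages. Map2k6 encodes MKK6, a kinase that activates p38 MAP kinases, which include p38α (gene Mapk14) and p38γ (gene Mapk12, abundant in skeletal muscle).

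On GRCm38 (GENCODE M21) the cluster runs along the minus strand of chromosome 11 in the order Abca8b (109932190 to 109995845), Abca8a (110025634 to 110095978), Abca9 (110100749 to 110168196), Abca6 (110176820 to 110251776) and Abca5 (110269369 to 110337716). Map2k6 (110399122 to 110525522) lies on the plus strand, so Abca5 and Map2k6 point away from each other. Their annotated starts are 61.4 kb apart. The starts of the other cluster genes lie farther from that of Map2k6, at 147.3 kb for Abca6, 230.9 kb for Abca9, 303.1 kb for Abca8a and 403.3 kb for Abca8b. The table holds 1 value per gene and library, so transcripts from different starts of 1 gene were not separated.

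The promoter windows of 3 genes are printed to show Abca5 and Map2k6, which differed from control in opposite directions, beside Abca8a, a cluster gene whose groups overlapped. They are RefSeq sequences on GRCm38.p6, each from 250 bases before to 50 bases after the start, read 5′ to 3′ on the gene's strand. The windows are chr11:110337667-110337966 (minus strand) for Abca5, chr11:110398852-110399151 (plus strand) for the first of 3 annotated Map2k6 starts, and chr11:110095888-110096187 (minus strand) for Abca8a. Capitals mark matches, on either strand, to the letters of the E-box (CANNTG), AP-1 (TGANTCA), CRE (TGACG), TATA box (TATAAA) and Sp1 (GGGCGG) motifs, to the box named for its letters CCAAT, or to the MEF2 motif.
Abca5: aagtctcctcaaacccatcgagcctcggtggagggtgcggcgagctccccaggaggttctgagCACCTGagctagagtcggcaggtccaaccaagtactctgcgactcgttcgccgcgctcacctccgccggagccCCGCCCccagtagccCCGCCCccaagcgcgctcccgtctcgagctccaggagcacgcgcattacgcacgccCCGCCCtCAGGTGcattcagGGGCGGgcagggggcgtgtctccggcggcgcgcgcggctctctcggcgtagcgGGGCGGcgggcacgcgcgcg
Map2k6: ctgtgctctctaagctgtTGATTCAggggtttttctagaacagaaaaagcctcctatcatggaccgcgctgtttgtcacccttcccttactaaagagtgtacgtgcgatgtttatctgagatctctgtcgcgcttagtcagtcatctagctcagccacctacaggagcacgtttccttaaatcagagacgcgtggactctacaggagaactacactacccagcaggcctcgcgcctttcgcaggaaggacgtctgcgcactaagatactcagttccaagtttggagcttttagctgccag
Abca8a: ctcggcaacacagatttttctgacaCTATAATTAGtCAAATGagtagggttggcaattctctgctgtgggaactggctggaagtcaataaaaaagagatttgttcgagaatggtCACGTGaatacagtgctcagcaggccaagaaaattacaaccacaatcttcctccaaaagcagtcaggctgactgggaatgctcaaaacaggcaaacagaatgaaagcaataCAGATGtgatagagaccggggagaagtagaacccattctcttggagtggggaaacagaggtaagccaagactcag
The Abca5 window is rich in G and C (72.3%) and holds 40 CpG pairs, more than 96.1% of the 32817 windows in the RefSeq table, whose median is 7. The Map2k6 window holds 14 CpG pairs at 50% GC, and the windows of its other starts hold 6 and 4. Among the cluster genes whose groups overlapped, the window of Abca8a holds 4 CpG pairs (44.3% GC), that of Abca9 holds 2 (45.3% GC) and that of Abca8b holds 10 (51.3% GC). The Abca5 window has 5 Sp1 and 2 E-box matches, the Map2k6 window 1 AP-1 match, and the Abca8a window 1 MEF2 and 3 E-box matches. Of all windows, 35.6% hold an Sp1 match, 72.3% an E-box, 7.81% an AP-1 match and 3.69% a MEF2 match; for CRE, CCAAT box and TATA box the shares are 20.8%, 37.4% and 13.6%. In the printed windows no marked matches overlap. A match is a description of letters only. Of the 5 cluster genes, 4 were matched in the table; Abca6 was not.

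Inferred depth was 23800000 to 27900000 reads per library, on the assumption, not established here, that the values are scaled whole reads. Within a group the log2 values correlated at r = 0.976 to 0.993 across genes, apart from p38α KO 1 and 3 (r = 0.96), and p38α KO 1 stood apart from its group on the first principal component, which held 54.2% of the variance. The genotype labels were checked on the targeted genes. Mapk14 measured 43.8, 45.5 and 40.3 in p38α KO, 54.7, 37.0 and 42.7 in p38α/γ KO, and 142.7, 149.3 and 156.7 in control. That was 3.41-fold lower in p38α KO and 3.32-fold lower in p38α/γ KO (limma adjusted p = 0.000206 and 0.000137). Mapk12 measured 96.5, 102.9 and 105.1 in p38α KO, 31.2, 35.5 and 32.8 in p38α/γ KO, and 139.9, 137.9 and 152.2 in control. It was 1.41-fold lower in p38α KO and 4.23-fold lower in p38α/γ KO (limma adjusted p = 0.00601 and 9.84e-07). The 12 skeletal fibre markers summed to 106600 to 150000 in p38α KO, 128600 to 135200 in p38α/γ KO and 170100 to 185500 in control, so fibre genes were abundant in every library. The sums were lower in both knockouts than in control.

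Abca5, the cluster gene nearest to Map2k6, was lower in both knockouts than in control. Its normalised values were 6.57, 7.26 and 5.96 in p38α KO, 7.30, 7.84 and 7.35 in p38α/γ KO, and 19.5, 18.0 and 16.4 in control. Every knockout library lay below every control library, and the p38α KO libraries also lay below the p38α/γ KO libraries. The means were 6.60 ± 0.651 in p38α KO, 7.50 ± 0.297 in p38α/γ KO and 18.0 ± 1.59 in control (SD, n = 3 each). The ratio of means to control was 0.367 in p38α KO and 0.417 in p38α/γ KO. On the scale of log2(value + 1), which understates folds of low genes, Abca5 was 2.50-fold lower in p38α KO (log2 −1.32, SE 0.106) and 2.23-fold lower in p38α/γ KO (log2 −1.16, SE 0.106). Set against each other, the knockouts differed by log2 −0.17 (SE 0.106, p38α KO over p38α/γ KO). Between 167 and 482 inferred reads lay behind each Abca5 value.

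Map2k6 was higher in both knockouts than in control. Its normalised values were 63.9, 83.8 and 104.3 in p38α KO, 70.7, 64.1 and 70.9 in p38α/γ KO, and 19.8, 19.7 and 18.5 in control. The lowest knockout library was more than 3 times the highest control library, and the knockout groups overlapped each other. Map2k6 averaged 84.0 ± 20.2 in p38α KO, 68.6 ± 3.86 in p38α/γ KO and 19.4 ± 0.712 in control (SD, n = 3 each). It was 4.10-fold higher in p38α KO (log2 2.03, SE 0.15) and 3.42-fold higher in p38α/γ KO (log2 1.77, SE 0.15). The spread was widest in p38α KO, where replicate 1 was lowest and replicate 3 highest. For Abca5 the order of the same libraries differed, with replicate 2 highest and replicate 3 lowest. Without p38α KO 1, the library that stood apart, the p38α KO difference from control was log2 2.22 for Map2k6 and −1.32 for Abca5.

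**Figure D1:**
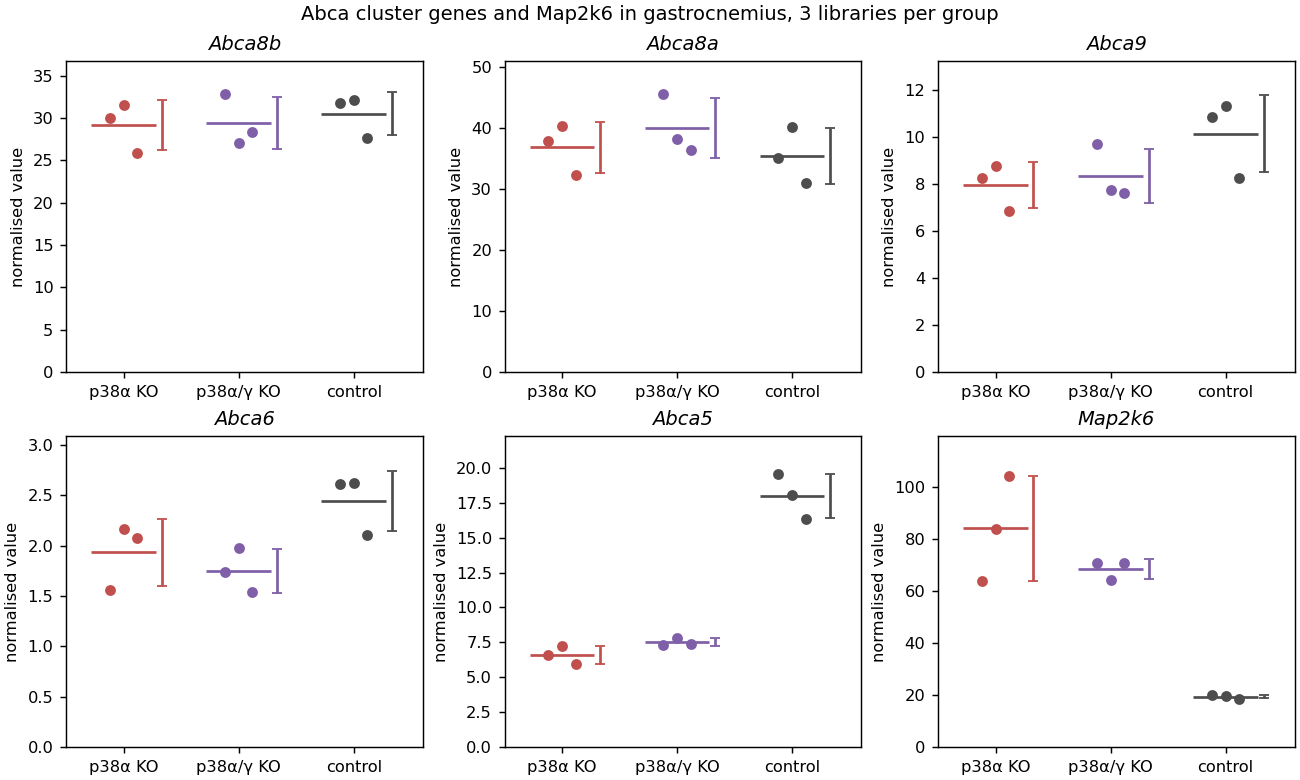
Normalised values (vertical axes, each from 0) of the 5 Abca cluster genes and Map2k6 in p38α KO, p38α/γ KO and control gastrocnemius; points are libraries in replicate order, horizontal lines are means and bars are 1 SD. Abca5 averaged 6.60 and 7.50 in the knockouts and 18.0 in control, Map2k6 averaged 84.0 and 68.6 in the knockouts and 19.4 in control, and the groups overlap for Abca8b, Abca8a and Abca9.

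The ratio of the normalised value of Map2k6 to that of Abca5 shows both differences within each library. It was 9.72, 11.5 and 17.5 in p38α KO, 9.68, 8.18 and 9.64 in p38α/γ KO, and 1.01, 1.09 and 1.13 in control. The values of the pair were thus nearly equal in every control library and far apart in every knockout library. The ratio averaged 12.9 ± 4.08 in p38α KO, 9.17 ± 0.858 in p38α/γ KO and 1.08 ± 0.0599 in control (SD, n = 3 each). Per kb of exon the pair was not equal in control: Map2k6 measured 5.62 ± 0.207 and Abca5 1.57 ± 0.139, since the Abca5 exons cover 11.437 kb and those of Map2k6 3.444 kb.

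Abca8a and Abca8b were the most abundant cluster genes and showed no difference beyond the spread of the libraries. Abca8b measured 30.0, 31.6 and 25.9 in p38α KO, 32.8, 27.1 and 28.4 in p38α/γ KO, and 31.7, 32.2 and 27.6 in control. The 3 groups overlapped, with means of 29.2 ± 2.92 in p38α KO, 29.4 ± 3.04 in p38α/γ KO and 30.5 ± 2.53 in control (SD, n = 3 each). The differences from control were log2 −0.06 in p38α KO and −0.05 in p38α/γ KO (SE 0.111). Abca8a measured 37.9, 40.4 and 32.3 in p38α KO, 45.6, 38.2 and 36.4 in p38α/γ KO, and 35.1, 40.2 and 30.9 in control. These groups overlapped too, with means of 36.9 ± 4.17 in p38α KO, 40.1 ± 4.91 in p38α/γ KO and 35.4 ± 4.64 in control (SD, n = 3 each). The differences from control were log2 0.06 in p38α KO and 0.18 in p38α/γ KO (SE 0.129). These genes are neighbours of closely related sequence: 102 of 7402 stretches of 51 bases (1.38%) in Abca8b transcripts also occur in Abca8a, where they are 1.59% of 6396. Reads from those stretches could have been counted for either gene.

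Abca9 and Abca6 lie between Abca8a and Abca5 on the chromosome, and their means were lower in both knockouts than in control. Abca9 measured 8.26, 8.76 and 6.85 in p38α KO, 9.69, 7.74 and 7.60 in p38α/γ KO, and 10.8, 11.3 and 8.26 in control. Control replicate 3 fell within the range of both knockouts. In both knockouts each library lay below the control library of the same number, but pairing by number was not established. The means were 7.95 ± 0.99 in p38α KO, 8.34 ± 1.17 in p38α/γ KO and 10.1 ± 1.64 in control (SD, n = 3 each). The differences from control were log2 −0.31 in p38α KO and −0.25 in p38α/γ KO (SE 0.147).

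Abca6 was the lowest cluster gene. It measured 1.56, 2.16 and 2.08 in p38α KO, 1.73, 1.97 and 1.54 in p38α/γ KO, and 2.61, 2.63 and 2.10 in control, from 37 to 66 inferred reads per library. The p38α KO libraries overlapped with control, while the p38α/γ KO libraries all lay below it. The means were 1.93 ± 0.33 in p38α KO, 1.75 ± 0.219 in p38α/γ KO and 2.45 ± 0.299 in control (SD, n = 3 each), and the differences from control were log2 −0.24 in p38α KO and −0.33 in p38α/γ KO (SE 0.138). Abca9 and Abca6 share 12 stretches of 51 bases (0.149% and 0.224% of their transcripts), whereas Abca5 and Map2k6 share none with any of the 6 genes.

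Over the cluster, 1 of 5 members did not overlap with control in p38α KO and 2 of 5 did not in p38α/γ KO. Groups did not overlap for 38.6% of all tested genes in p38α KO over control and for 55.0% in p38α/γ KO over control. Called here means a limma adjusted p under 0.05: 17.8% of tested genes were called in p38α KO over control, 7.32% higher and 10.4% lower, and 25.6% in p38α/γ KO over control, 11.2% higher and 14.4% lower. These shares are given for scale, and nothing is read from them about the members, which were chosen on the same comparisons. The median member difference was log2 −0.24 in p38α KO and −0.25 in p38α/γ KO, beside 0.01 and 0.02 over all tested genes. These medians too are given for scale only.

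The 4 members other than Abca5 gave overlapping summed levels in the 3 groups. Their normalised values summed to 77.7, 82.9 and 67.1 in p38α KO, 89.9, 75.0 and 73.9 in p38α/γ KO, and 80.2, 86.3 and 68.9 in control. Replicate 3 had the lowest sum in each group, and the groups overlapped. Most of each sum came from Abca8a and Abca8b, so it does not show whether Abca9 and Abca6 held level. The sums averaged 75.9 ± 8.05 in p38α KO, 79.6 ± 8.96 in p38α/γ KO and 78.5 ± 8.84 in control (SD, n = 3 each). Abca5 made up 7.80, 8.05 and 8.15% of the cluster's summed value in p38α KO, 7.51, 9.47 and 9.05% in p38α/γ KO, and 19.6, 17.3 and 19.2% in control. That share averaged 8.00 ± 0.182% in p38α KO, 8.68 ± 1.03% in p38α/γ KO and 18.7 ± 1.23% in control (SD, n = 3 each).

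**Figure D2:**
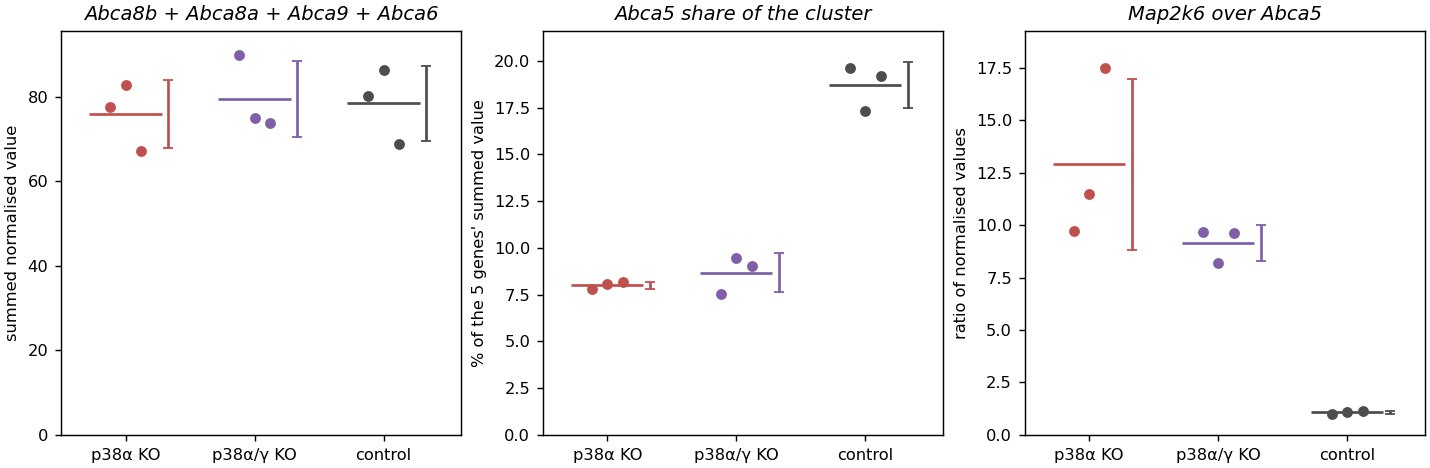
Left, summed normalised value of Abca8b, Abca8a, Abca9 and Abca6; middle, Abca5 as a percentage of the summed value of the 5 genes; right, ratio of the normalised value of Map2k6 to that of Abca5. Points are libraries, lines are means and bars are 1 SD (3 libraries per group); the sums overlap between groups, Abca5 shares are near 8.00% in p38α KO, 8.68% in p38α/γ KO and 18.7% in control, and the ratio is near 1 in control only.

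Levels per kb of exon allow the members to be ranked. In p38α KO, Abca8a measured 5.88 ± 0.664 per kb, Abca8b 3.93 ± 0.393, Abca9 0.988 ± 0.123, Abca5 0.577 ± 0.057 and Abca6 0.358 ± 0.0611. In p38α/γ KO the same order held, at 6.39 ± 0.783, 3.96 ± 0.409, 1.04 ± 0.145, 0.656 ± 0.026 and 0.324 ± 0.0405 per kb. In control, Abca8a (5.64 ± 0.74 per kb) and Abca8b (4.11 ± 0.341) were followed by Abca5 (1.57 ± 0.139), then Abca9 (1.26 ± 0.205) and Abca6 (0.453 ± 0.0554; SD, n = 3 throughout). Abca5 and Abca9 thus traded places between the knockouts and control. In control the mean ± 1 SD of Abca5 and of Abca9 overlapped, and in the knockouts they did not. Exon length was taken over all annotated transcripts, so a gene that uses short transcripts is placed too low.

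Within the groups, Abca8b, Abca8a and Abca9 varied together from library to library. After each library was set against its group mean, their log2 values correlated pairwise at r = 0.924 (Abca8b and Abca8a), 0.961 (Abca8b and Abca9) and 0.956 (Abca8a and Abca9) over 9 libraries. Abca6 correlated with these at r = 0.127 to 0.31, and Abca5 at r = 0.519 to 0.63. Abca6 had the fewest inferred reads of the cluster, 37 to 66 per library, so its r is not on equal terms with the others. Map2k6 correlated with Abca5 at r = −0.27 and with Abca6 at r = 0.542. These are descriptions over 9 libraries that share their scaling, and no p is given.

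By the same measure, over genes with a mean value of at least 5 (9437 compared, 9438 for Abca6), the genes most like Abca5 were Slc4a7 (r = 0.937), Phldb2 (0.936) and Dnajc5 (0.929). Those most like Abca8b were Zmym6 (0.985), Abca9 (0.961) and Ppfia1 (0.952). Abca8a was most like Entpd1 (0.961), the collagen VI gene Col6a6 (0.959) and Abca9 (0.956). Abca9 was most like Ppfia1 (0.978), Col6a6 (0.975) and Tmem47 (0.97). Abca6 was most like Ankrd44 (0.964), Taf9 (0.961) and Kat14 (0.955). Abca6, with a mean below 5, was not a candidate for the lists of the other genes. None of the other cluster genes was among the closest genes of Abca5 or Abca6. Only the 3 closest of many genes are named, over 9 libraries, so nothing is read from an absence.

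The genes around the cluster show whether differences of this size were found farther along the chromosome. The window of 1 Mb on each side of the cluster and Map2k6 (108932190 to 111525522) holds 30 other annotated genes, 14 of them protein coding, and 10 of the 30 were in the table and tested. In p38α KO, 1 of these 10 was called, lower, beside 17.8% of all tested genes. In p38α/γ KO, 2 of the 10 were called, 1 higher and 1 lower, beside 25.6%. Neither share exceeded that of all tested genes. Their median difference was log2 −0.05 in p38α KO and −0.06 in p38α/γ KO.

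Of the nearest tested genes outside, the left one was called in p38α/γ KO and the right one in neither comparison. Distances given for neighbours run between the start of the gene and that of Map2k6, not from the edge of the cluster. On the left, Fam20a, which encodes a pseudokinase of the secretory pathway (676.8 kb), measured 4.52, 2.81 and 3.29 in p38α KO, 4.05, 4.42 and 3.99 in p38α/γ KO, and 1.88, 2.71 and 2.41 in control. No knockout library overlapped with control. Fam20a rose in p38α/γ KO (log2 0.64, limma adjusted p = 0.0207) and had a difference of log2 0.44 in p38α KO (adjusted p = 0.0843). On the right, Kcnj2, which encodes an inward rectifier potassium channel (667.0 kb), measured 54.0, 55.6 and 57.4 in p38α KO, 59.5, 47.3 and 58.2 in p38α/γ KO, and 67.2, 60.1 and 53.8 in control. These groups overlapped (log2 −0.11 and −0.13, limma adjusted p = 0.517 and 0.388).

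Amz2, which encodes a metallopeptidase (973.2 kb), was the called gene that fell in both knockouts. It measured 59.9, 61.7 and 68.8 in p38α KO, 65.8, 57.9 and 65.9 in p38α/γ KO, and 82.9, 77.0 and 84.6 in control, with no overlap between knockouts and control. Its difference was log2 −0.36 in p38α KO and −0.36 in p38α/γ KO (limma adjusted p = 0.0252 and 0.02). The Amz2 call in p38α KO was lost without p38α KO 2 and without control 1, 2 or 3 (adjusted p = 0.0722, 0.0877, 0.053 and 0.1; 0.0137 to 0.105 over all alternatives). In p38α/γ KO both calls were lost without p38α/γ KO 2 or 3 or control 1 or 3 (adjusted p = 0.0856, 0.0542, 0.0741 and 0.0774 for Amz2, and 0.0808, 0.0609, 0.0798 and 0.0606 for Fam20a). Over all alternatives the adjusted p of these calls ranged from 0.00373 to 0.0856 for Amz2 and from 0.00401 to 0.0808 for Fam20a.

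**Figure D3:**
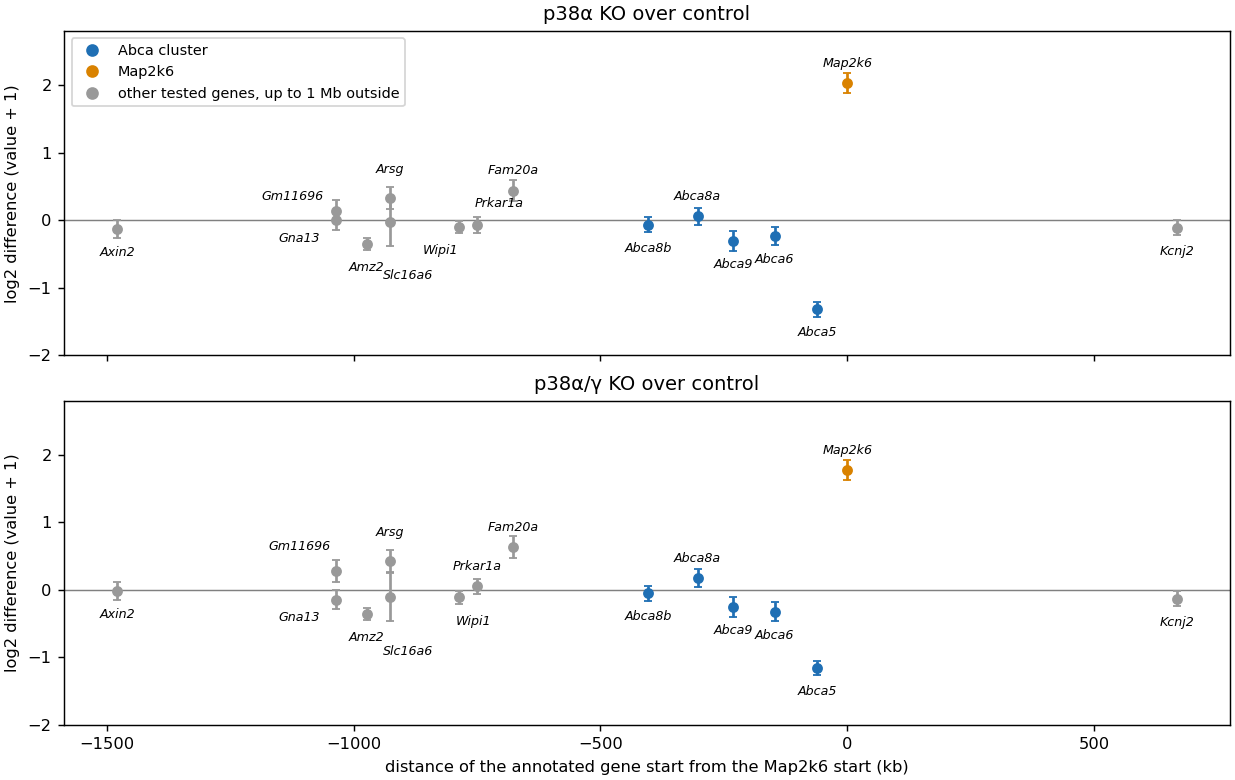
Log2 difference from control (vertical axis, log2(value + 1), bars are the standard error of the fit) against distance of each gene's annotated start from that of Map2k6 in kb (horizontal axis), for p38α KO above and p38α/γ KO below. Map2k6 lies at 2.03 and 1.77, Abca5 at −1.32 and −1.16, and the other cluster genes and neighbours lie closer to 0.

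When p38α KO was set against p38α/γ KO, limma called 0 of the 10 neighbours (0 at an unadjusted p under 0.05). Of all tested genes, 0.442% were called. The member differences were log2 −0.01 for Abca8b, −0.12 for Abca8a, −0.06 for Abca9, 0.09 for Abca6 and −0.17 for Abca5, and Map2k6 differed by 0.26 (SE 0.15). Each of these was within 2 standard errors of 0, and the libraries of both groups overlapped for each gene except Abca5. The share of all tested genes without overlap was not counted for this comparison, so nothing is read from the Abca5 separation.

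The rest of the ABC family is the wider group to which the cluster belongs. Of 29 other ABC genes tested, 7 were called in p38α KO, 2 higher and 5 lower, and 11 in p38α/γ KO, 2 higher and 9 lower, beside 17.8% and 25.6% of all tested genes. The median difference was log2 −0.11 in p38α KO and −0.22 in p38α/γ KO. The member medians of −0.24 and −0.25 are not set against these, as the members were chosen on the same comparisons. The 11 calls in p38α/γ KO became 2 and 4 without p38α/γ KO 2 or 3, 3, 4 and 4 without control 1, 2 or 3, 17 without p38α KO 1, and 17 with a replicate block in the 6 libraries of that comparison. The 7 calls in p38α KO became 4 without p38α KO 2, 4, 3 and 3 without control 1, 2 or 3, and 1, Abca1, with the same kind of block in the 6 libraries of its comparison.

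Abca1, which carries cholesterol and phospholipid out of cells to apolipoprotein A-I, is the subfamily A gene outside the cluster that fell in both knockouts. It measured 20.2, 19.8 and 21.9 in p38α KO, 21.1, 27.4 and 22.3 in p38α/γ KO, and 33.3, 34.3 and 36.1 in control, with no overlap between knockouts and control. Abca1 was 1.64-fold lower in p38α KO and 1.45-fold lower in p38α/γ KO (limma adjusted p = 0.00353 and 0.00973). Both Abca1 calls were kept under every alternative run, at adjusted p = 0.00313 to 0.0438 in p38α KO and 0.00285 to 0.0463 in p38α/γ KO. The Abca1 difference of log2 −0.72 in p38α KO was smaller in size than the −1.32 of Abca5.

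Abcb4, a phosphatidylcholine floppase, measured 67.9, 100.6 and 102.2 in p38α KO, 111.6, 81.7 and 98.0 in p38α/γ KO, and 165.4, 160.6 and 161.5 in control. It fell 1.82-fold in p38α KO and 1.68-fold in p38α/γ KO (limma adjusted p = 0.00868 and 0.0132); the first call was lost with a replicate block in 6 libraries (adjusted p = 0.0557, the highest of a range from 0.00418), and the second without p38α/γ KO 2 (adjusted p = 0.0595, the highest of a range from 0.000621). Abcd2, a peroxisomal transporter of very long-chain fatty acids, measured 20.0, 28.7 and 33.8 in p38α KO, 26.0, 19.0 and 18.0 in p38α/γ KO, and 45.6, 45.5 and 48.6 in control. It fell 1.71-fold in p38α KO and 2.19-fold in p38α/γ KO (limma adjusted p = 0.0221 and 0.00562). The second call was kept under every alternative run, and the first was lost without control 1, 2 or 3 and with a replicate block (adjusted p = 0.00788 to 0.0798 over the alternatives).

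**Figure D4:**
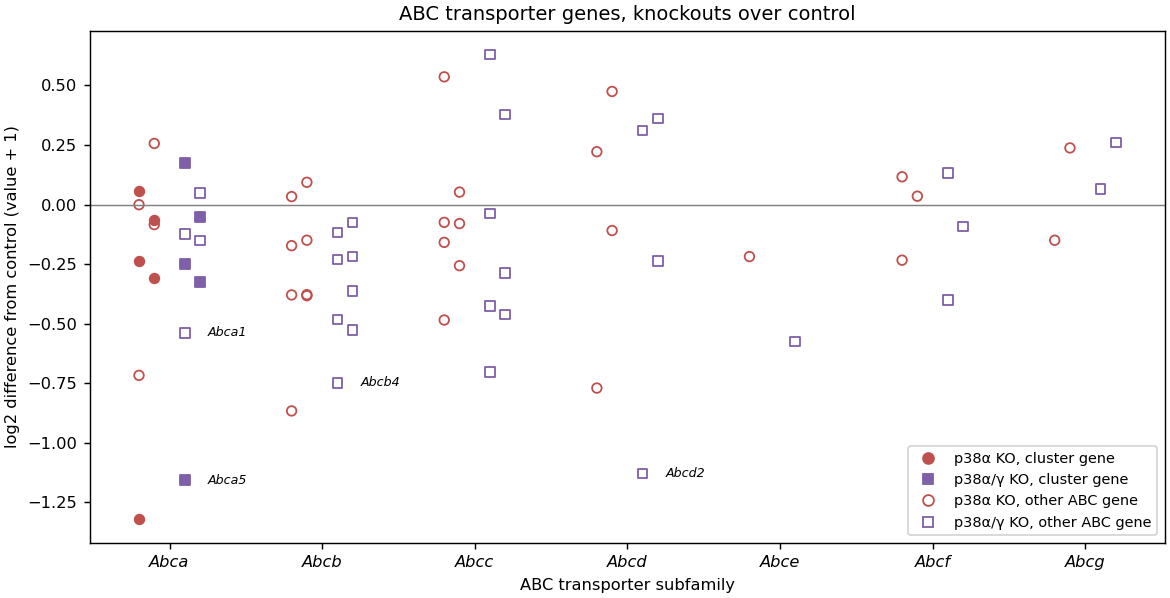
Log2 difference from control (vertical axis, log2(value + 1)) of the 5 cluster genes (filled) and 29 other ABC transporter genes (open) by subfamily (horizontal axis), with p38α KO as circles left of p38α/γ KO as squares. Abca5 is the lowest point of both comparisons, at −1.32 and −1.16, and Abcd2 at −1.13 in p38α/γ KO is next to it.

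Since many ABC transporters of subfamily A act on cholesterol, 29 genes of sterol uptake, synthesis, storage and efflux were counted. Lcat was not in the table, and Abca1 and Abcg1 are also counted among the other ABC genes. In p38α KO 1 was called higher and 5 lower, and in p38α/γ KO 3 higher and 6 lower, counts of 6 and 9 that lie near the 17.8% and 25.6% of all tested genes. The median difference was log2 −0.08 in p38α KO and −0.06 in p38α/γ KO. Srebf1, a transcription factor of lipid synthesis, measured 34.3, 33.8 and 35.3 in p38α KO, 39.9, 40.3 and 37.3 in p38α/γ KO, and 65.8, 61.8 and 76.6 in control. Srebf1 fell 1.94-fold in p38α KO and 1.71-fold in p38α/γ KO (limma adjusted p = 0.000657 and 0.00181), under every alternative run.

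Insig2, which holds SREBP precursors in the endoplasmic reticulum, fell 1.38-fold in p38α KO and 1.3-fold in p38α/γ KO (limma adjusted p = 0.0108 and 0.0184). The first call was lost without control 1 and with a replicate block in 6 libraries (adjusted p = 0.00837 to 0.0659 over the alternatives), and the second without p38α/γ KO 2 or 3 or control 1 or 3 (0.00475 to 0.073). Lipa, the lysosomal acid lipase that frees cholesterol from its esters, averaged 15.1 ± 1.54 in p38α KO, 16.3 ± 2.3 in p38α/γ KO and 10.5 ± 0.27 in control (SD, n = 3 each). It rose 1.40-fold in p38α KO and 1.49-fold in p38α/γ KO (limma adjusted p = 0.0227 and 0.0112). The second call was kept under every alternative run, and the first was lost without p38α KO 2, without control 1, 2 or 3 and with a replicate block in 6 libraries (adjusted p = 0.0138 to 0.094 over the alternatives). The sterol count of 6 in p38α KO became 2, 3 and 3 without control 1, 2 or 3, and 2 with a replicate block in 6 libraries. The count of 9 in p38α/γ KO became 4 and 5 without p38α/γ KO 2 or 3, 3 and 5 without control 1 or 3, 15 without p38α KO 1, and 15 with a replicate block in 6 libraries.

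Gastrocnemius holds fibroblasts, vessel cells, macrophages and other cells besides fibres, and in bulk RNA fewer cells of a type and less RNA per cell cannot be told apart. Of 19 markers of fibro-adipogenic progenitors and fibroblasts, 2 were called in p38α KO and 11 in p38α/γ KO, all higher, beside 17.8% and 25.6% of all tested genes (Tcf21 was not in the table). They summed to 2378 to 4044 in p38α KO, 3294 to 4549 in p38α/γ KO and 2200 to 2833 in control, so p38α KO overlapped with control and p38α/γ KO did not. Among them Ly6a rose 1.52-fold in p38α KO and 1.53-fold in p38α/γ KO (limma adjusted p = 0.0182 and 0.0145). Pi16 rose 2.91-fold and Mfap5 2.86-fold in p38α/γ KO (limma adjusted p = 0.0162 and 0.021). In p38α KO they were 2.16-fold and 2.14-fold higher, which limma did not call (adjusted p = 0.0566 and 0.0729). Fbln1 rose 1.47-fold in p38α KO (limma adjusted p = 0.0491, lost in 7 of 9 fits that left out 1 library). It also rose 1.47-fold in p38α/γ KO (limma adjusted p = 0.0399, lost in 5 of 9 such fits). The summed level of Abca8b, Abca8a, Abca9 and Abca6 overlapped between the same groups, at 79.6 ± 8.96 in p38α/γ KO and 78.5 ± 8.84 in control (SD, n = 3). The 11 calls became 7, 0 and 0 without p38α/γ KO 1, 2 or 3, 0, 7 and 0 without control 1, 2 or 3, 17 without p38α KO 1, and 17 with a replicate block in 6 libraries. The 2 calls in p38α KO became 0 without control 1 or 3, 1 without p38α KO 1 or any p38α/γ KO library, 7 without p38α KO 3, and 0 with a replicate block in 6 libraries.

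Macrophage markers were higher in both knockouts, with 9 of 12 called in p38α KO and 12 of 12 in p38α/γ KO, beside the same shares. They summed to 147.4 to 350.0 in p38α KO, 162.8 to 318.3 in p38α/γ KO and 76.6 to 103.5 in control. The count in p38α/γ KO became 1 without p38α/γ KO 2, 5, 7 and 4 without control 1, 2 or 3, and 7 without p38α/γ KO 1; that in p38α KO became 6 and 4 without p38α KO 1 or 2 and 2, 4 and 1 without control 1, 2 or 3, and 4 with a replicate block in 6 libraries. Of 10 mural cell markers, 2 were called in p38α KO and 4 in p38α/γ KO, all lower, beside 17.8% and 25.6% of all tested genes. Pdgfrb had positive differences in both (log2 0.22 and 0.21), which limma did not call (adjusted p = 0.182 and 0.167). Cspg4 did too (log2 0.05 and 0.18, limma adjusted p = 0.898 and 0.528), and the other mural markers had negative differences. The mural markers summed to 671.4 to 732.2 in p38α KO, 641.9 to 718.5 in p38α/γ KO and 831.0 to 956.1 in control. The mural count in p38α KO became 0 without p38α KO 2 or any control library, 1 without p38α KO 1 or any p38α/γ KO library, and 4 without p38α KO 3; that in p38α/γ KO became 1, 0 and 0 without control 1, 2 or 3, 2, 0 and 0 without p38α/γ KO 1, 2 or 3, and 2 without p38α KO 2. With a replicate block in all 9 libraries or in 6, the mural count in p38α KO was 0. Endothelial markers summed to 526.1 to 602.3 in p38α KO, 503.6 to 549.6 in p38α/γ KO and 546.8 to 563.6 in control, with 0 of 12 called in p38α KO by limma (2 at an unadjusted p under 0.05) and 3 in p38α/γ KO. Those 3 became 0 without p38α/γ KO 2 or 3 or control 3, 1 without control 1 or 2, and 5 without p38α KO 1, and 6 with a replicate block in 6 libraries. Adipocyte, tenocyte, Schwann and satellite cell markers had at most 1 gene called per comparison with control in the fit of all 9 libraries. Leaving out 1 library gave up to 2 adipocyte, 2 tenocyte and 3 satellite cell calls in p38α KO (without control 1, p38α KO 1 and p38α KO 3), and up to 1, 3 and 2 in p38α/γ KO (tenocyte 3 without p38α KO 1; satellite 2 without p38α KO 1 or 3). A replicate block in 6 libraries gave 4 adipocyte, 4 tenocyte and 2 satellite cell calls in p38α/γ KO, and the 6 libraries alone gave 0, 3 and 3.

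Of the 12 fibre markers, 2 were called in p38α KO and 1 in p38α/γ KO, all lower, beside 17.8% and 25.6% of all tested genes. Their median difference was log2 −0.37 in p38α KO and −0.28 in p38α/γ KO. The myosin gene Myh4 and the actin gene Acta1 had the highest levels, and the myosin genes Myh1 and Myh2 had positive differences in p38α/γ KO (log2 0.65 and 0.80) that limma did not call (adjusted p = 0.151 and 0.164). The fibre count in p38α KO became 0 without p38α KO 2 or any control library, 1 without any p38α/γ KO library and 5 without p38α KO 3. That in p38α/γ KO became 5 and 3 without p38α KO 1 or 3, 0 without any 1 of the other libraries, and 3 with a replicate block in 6 libraries. Whether these marker lists have a part in the Abca5 or Map2k6 differences was not tested.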

How the data were processed

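Gastrocnemius RNA was measured in 9 libraries, 3 per group, from 100 ng of RNA with RIN above 8 and 51-base single reads after a stranded polyA protocol, per the labels' protocols. CASAVA 1.8, cutadapt, RSEM 1.3.1, limma and GRCm38 are listed in the submitters' processing notes, without their order. The deposited table holds 1 normalised signal value per gene and library, named by the authors as normalised counts; how the authors scaled or filtered them is not given in the sources used here. All 118611 values are odd multiples of their library's smallest value (tolerance 1e-06), from which depth and reads were inferred; they were not tested as counts. Intervals of depth are not given, because no file states that these are reads.

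After genes were dropped unless 3 or more libraries reached a value of 1, log2(value + 1) was fitted with limma 3.58.1 (R 4.3.3; empirical Bayes with trend, all 9 libraries, no covariate), with Benjamini-Hochberg adjustment over 13137 genes within each comparison and a threshold of 0.05. Figures used Python 3.11.15 and matplotlib 3.10.9. Of the gene IDs, 13166 were in GENCODE M21. The fit was tested on simulated data. The members and lists were chosen with earlier results of these data known. Named genes were the members, Map2k6, Mapk14, Mapk12, window genes called in a comparison with control, the nearest tested gene on each side, up to 3 genes of lowest p per list with at least 2 calls (for macrophage, mural, endothelial and fibre markers counts and sums are printed, with Pdgfrb, Myh4, Acta1, Myh1 and Myh2 chosen after their values were seen, and 1 gene is not reported here), and 3 genes most like each member.

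Replicate numbers were checked for pairing by the correlation of deviations from group means: 0.111, 0.124 and 0.148 for p38α/γ KO and control, −0.086, −0.087 and 0.095 for p38α KO and control, and −0.331, −0.228 and 0.089 between the knockouts. Each p38α/γ KO library correlated best with the control library of its own number, which did not hold throughout for the other pairs of groups. These correlations are small and the labels do not say what the numbers share, so pairing was not established. The main fit did not pair libraries, and its p-values are unpaired. The replicate block in all 9 libraries also applies the numbers to p38α KO. Alternatives were other filters, pseudocounts, scalings and spread estimates, the 6 libraries of a comparison alone, a replicate block, and leaving out each library.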

Additional observations from a re-analysis of the deposited data

How the results depend on the processing

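Filters, spread estimates, fits of 6 libraries and replicate blocks leave a difference of group means unchanged by construction. Under the other pseudocounts, other scalings and left-out libraries, no difference of a member or of Map2k6 from control that exceeded its standard error changed sign. Abca8b and Abca8a, with differences near 0, did: Abca8b ranged from −0.13 to 0.02 in p38α KO and from −0.13 to 0.00 in p38α/γ KO, and Abca8a from −0.03 to 0.15 in p38α KO. Abca5 ranged from −1.38 to −0.99 in p38α KO and from −1.22 to −0.88 in p38α/γ KO, and Map2k6 from 1.85 to 2.22 and from 1.59 to 1.82. A pseudocount of 5 gave the ends of −0.99 and −0.88 for Abca5 and 1.59 for Map2k6 in p38α/γ KO, and −0.14 for Abca6 in p38α/γ KO, as a larger pseudocount shrinks low values by construction; quantile normalisation gave −0.46 for that gene. With a mean of at least 5, Abca6 has no value and 1 neighbour was called in p38α/γ KO; quantile normalisation called 0 in p38α KO.

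The count of called genes (2332 in p38α KO, 3368 in p38α/γ KO, 58 between the knockouts) became 1379, 5478 and 22 in fits of 6 libraries, which called 0 neighbours in p38α KO, and 582, 707 and 24 at an adjusted p under 0.01. The replicate block gave 1555, 2320 and 32. A replicate block in 6 libraries, chosen after seeing the data, gave 310, 5563 and 16, with 0 neighbours in p38α KO. By construction it cannot move the differences of the members and Map2k6, as each group has 1 library per number. Leaving out 1 library gave 801 to 3241, 844 to 5346 and 13 to 1862 called genes, and 0 to 1 and 0 to 3 neighbours. The p38α KO count was 1453 without p38α KO 2 and 840, 981 and 801 without control 1, 2 or 3. The p38α/γ KO count was 5346 without p38α KO 1, 844 and 1010 without p38α/γ KO 2 or 3, and 1094, 1634 and 1173 without control 1, 2 or 3. The count between the knockouts was 1862 without p38α KO 1, 20 without p38α KO 2, 23, 20 and 13 without p38α/γ KO 1, 2 or 3, and 38 without control 3. The cause was not tested. A count model was not run, because whole reads were not established.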
